A study of Mus musculus with 7 samples.

Results

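The endocannabinoid system genes Cnr1, Dagla, Daglb, Napepld, Mgll and Faah were followed across neuron subtypes, glia, area and genotype in single-cell libraries of mouse cortex. They were taken by name, as 6 of the 19614 genes listed in the count tables. The libraries came from motor cortex (MC) and ventromedial prefrontal cortex (PFC) of B6129SF1/J mice at postnatal day 30, kept in 12 h of light and 12 h of darkness. Intrinsically photosensitive retinal ganglion cells (ipRGCs) are the melanopsin cells that carry light signals from the eye to the brain. The DTA mice carried Opn4-Cre/+; Brn3b-zDTA/+ and lack the ipRGCs in which the Brn3b locus is active. The CTRL mice carried Opn4-Cre/+; Brn3b-+/+ and keep these cells, so all groups share the Cre allele. The toxin needs both Cre, driven by the melanopsin gene Opn4, and an active Brn3b locus, a pairing found in the retina, so the loss itself cannot be checked in cortical RNA. There was 1 library of MC DTA, 1 of MC CTRL, 3 of PFC DTA and 2 of PFC CTRL. The labels do not say whether libraries of a group came from separate mice, so p-values measure the spread between libraries.

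Endocannabinoids are lipid messengers that neurons make on demand and that act backwards across the synapse. Dagla and Daglb encode the diacylglycerol lipases that make 2-arachidonoylglycerol, and Napepld encodes a phospholipase that makes anandamide and related lipids. Cnr1 encodes the CB1 cannabinoid receptor, which sits mostly on axon terminals and reduces transmitter release. Mgll encodes monoacylglycerol lipase, which breaks down 2-arachidonoylglycerol, and Faah encodes fatty acid amide hydrolase, which breaks down anandamide. In cortex the CB1 receptor is best known for its dense labelling of the terminals of cholecystokinin interneurons.

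Cnr1 (ENSMUSG00000044288.6) lies on chromosome 4, from 33924593 to 33948831 on the plus strand of GRCm38. Dagla (ENSMUSG00000035735.10) lies on chromosome 19, from 10245265 to 10304877 on the minus strand. Daglb (ENSMUSG00000039206.13) lies on chromosome 5, from 143464584 to 143505942 on the plus strand, and its 3' end overlaps Rac1 on the other strand. No source used here says whether reads were counted by strand, so the Daglb counts are uncertain to that extent. Napepld (ENSMUSG00000044968.16) lies on chromosome 5, from 21662901 to 21701396 on the minus strand. Mgll (ENSMUSG00000033174.17) lies on chromosome 6, from 88724412 to 88828360 on the plus strand. Faah (ENSMUSG00000034171.13) lies on chromosome 4, from 115967145 to 116017926 on the minus strand.

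The promoters of Cnr1, Daglb, Mgll and Faah are shown because these genes were highest in 4 different kinds of cell. Each is the RefSeq window of GRCm38.p6 from 250 bases before to 50 bases after an annotated start, written 5' to 3' along the gene's strand. Capitals mark the GC box GGGCGG on either strand.
Cnr1, chr4:33924014-33924313, plus strand: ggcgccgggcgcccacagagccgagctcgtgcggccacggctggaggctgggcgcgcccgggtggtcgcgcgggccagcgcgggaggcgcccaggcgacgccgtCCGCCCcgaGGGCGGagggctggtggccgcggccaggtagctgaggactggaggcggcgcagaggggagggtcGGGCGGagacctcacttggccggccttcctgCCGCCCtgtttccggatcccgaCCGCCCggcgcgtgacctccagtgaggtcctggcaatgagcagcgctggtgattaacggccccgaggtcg
Daglb, chr5:143464243-143464542, plus strand: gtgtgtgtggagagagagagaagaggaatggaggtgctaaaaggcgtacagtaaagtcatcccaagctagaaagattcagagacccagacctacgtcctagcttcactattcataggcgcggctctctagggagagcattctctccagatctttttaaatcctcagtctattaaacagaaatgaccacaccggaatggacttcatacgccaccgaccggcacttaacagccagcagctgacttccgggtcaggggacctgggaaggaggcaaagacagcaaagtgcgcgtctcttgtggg
Mgll, chr6:88724162-88724461, plus strand: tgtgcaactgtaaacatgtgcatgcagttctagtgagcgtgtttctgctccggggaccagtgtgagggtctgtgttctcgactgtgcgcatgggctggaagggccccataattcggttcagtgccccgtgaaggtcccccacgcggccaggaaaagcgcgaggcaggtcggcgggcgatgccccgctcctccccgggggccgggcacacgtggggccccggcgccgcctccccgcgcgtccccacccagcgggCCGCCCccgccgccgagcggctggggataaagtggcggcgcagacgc
Faah, chr4:116017875-116018174, minus strand: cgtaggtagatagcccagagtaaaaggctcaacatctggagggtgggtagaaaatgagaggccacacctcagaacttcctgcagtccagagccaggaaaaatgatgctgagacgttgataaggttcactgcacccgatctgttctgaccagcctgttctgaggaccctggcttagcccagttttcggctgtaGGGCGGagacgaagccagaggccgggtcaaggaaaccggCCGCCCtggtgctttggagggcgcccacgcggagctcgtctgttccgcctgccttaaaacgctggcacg
Cnr1 has 3 annotated windows and Mgll has 2, of which the most upstream is shown. The Cnr1 window shown held 5 GC box matches, that of Mgll 1, the Faah window 2 and the Daglb window 0. The other Cnr1 windows held 0 matches each, with 33 and 5 CpG dinucleotides, and the other Mgll window held 1 match and 42 CpG dinucleotides. Of 32851 windows of the same length, 35.7% held at least 1 match. CpG dinucleotides numbered 40 in the Cnr1 window shown, 32 in that of Mgll, 16 in the Faah window and 11 in the Daglb window, and the median over all windows was 7. None of the 4 windows shown held the CRE motif TGACGTCA, the CCAAT box or the TATA box TATAAA on either strand. These motifs were held by 1.79%, 37.4% and 13.6% of all windows.

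Clusters were named from marker genes, and a name such as Vip-like stands for cells that carry the markers of that type. IT, ET, NP and CT are the intratelencephalic, extratelencephalic, near-projecting and corticothalamic kinds of excitatory neuron. The libraries held 1936 to 9879 cells and 6180059 to 30972905 counted transcripts (UMIs), and each pair of libraries shared 7 to 92 cell barcodes. PFC DTA replicate 3 stood apart, since 2270 of its 5777 cells kept without doublets stayed unnamed, mostly in a cluster led by haemoglobin transcripts. MC DTA, PFC DTA replicate 2 and PFC CTRL replicate 1 were sequenced deeper per cell than the other 4 libraries, with median UMIs per excitatory neuron of 11578 to 15881 against 3089 to 5405. Levels are given in CPM, a gene's UMIs in a class and library divided by all UMIs there and scaled to 1000000, and the classes were rebuilt from the same cells, so levels between classes are described without a test. The 6 genes were kept out of the genes used for clustering, although Cnr1 was still among the leading genes of the Sncg/Cck-like cluster.

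Cnr1 was highest in Sncg/Cck-like interneurons, the class that holds the cholecystokinin basket cells. It reached 3365 CPM in MC DTA, 5472 CPM in MC CTRL, 4217, 3875 and 3052 CPM in the 3 PFC DTA libraries, and 4378 and 5990 CPM in the 2 PFC CTRL libraries. The mean was 4336 ± 1068 CPM (SD, n = 7 libraries), and this class was above Vip-like interneurons, the next class, by 5.12-fold in the ratio of means and in 7 of 7 libraries, with ranges that did not overlap. These cells made up 3.45% to 11.6% of inhibitory neurons, held 0.900% of all UMIs and carried 27.6% of all Cnr1 UMIs (mean over libraries, range 14.7% to 39.8%). After each cell was thinned to 1500 UMIs, 98.4% of Sncg/Cck-like cells had a Cnr1 UMI (99.2% before thinning). In microglia-like cells, which should lack the transcript, the thinned share was 2.19% (1.92% before thinning). The median UMIs per cell ranged over libraries from 4151 to 11564 in Sncg/Cck-like cells and from 1007 to 3229 in microglia-like cells, and thinning left out 6 and 933 shallower cells.

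The other interneuron classes formed a graded series in mean Cnr1. Vip-like cells averaged 848 ± 194 CPM, Lamp5-like cells 519 ± 95.7 CPM, Sst-like cells 260 ± 128 CPM and Pvalb-like cells 96.4 ± 27.2 CPM (SD, n = 7 libraries each). Vip-like cells were above Lamp5-like cells, and Lamp5-like cells above Sst-like cells, in 7 of 7 libraries each, although the ranges over libraries overlapped. Sst-like and Pvalb-like cells were level in MC DTA, at 115 CPM each. The Lamp5-like class was uneven in Cnr1: a sub-cluster with Ndnf and Cxcl14 among its leading genes averaged 1607 CPM over 4 libraries, while its other 2 sub-clusters averaged 317 and 197 CPM over 7 and 3 libraries. The Sst-like class was likewise split, with 393 CPM in a sub-cluster with Myh8 and Chrna2 among its leading genes and 127 CPM in one led by Pdyn and Crhbp (6 libraries each). With the Sncg/Cck-like cells taken out, Cnr1 in all other inhibitory neurons together ranged from 232 to 397 CPM over the libraries.

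**Figure D1:**
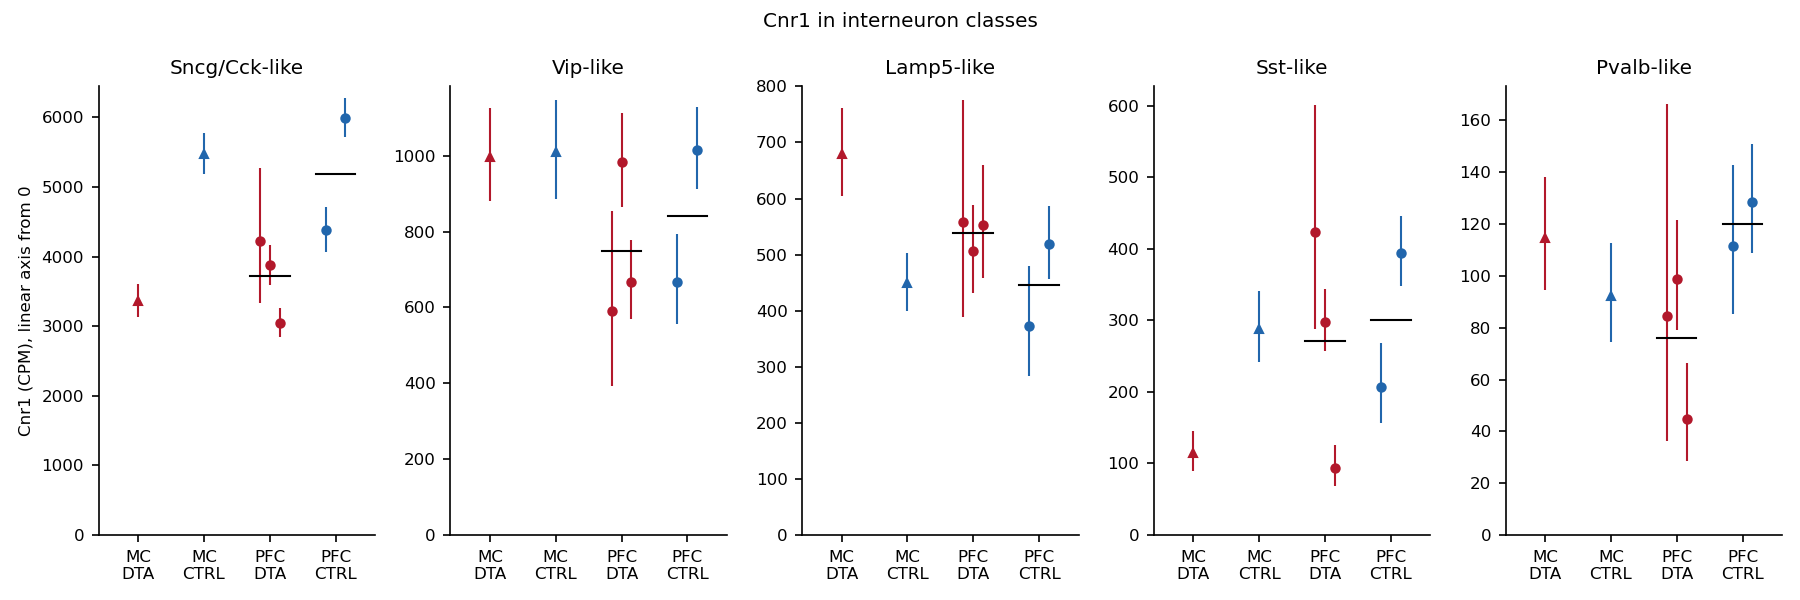
Cnr1 level (CPM, linear axes from 0 with a scale of their own) in 5 interneuron classes. Each point is 1 library with its exact 95% counting interval, black lines are means of the PFC groups, and the Sncg/Cck-like panel runs to 5990 CPM while the Pvalb-like panel stays under 129 CPM in its points.

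Among excitatory neurons Cnr1 differed between projection classes. L4/5 IT-like cells averaged 178 ± 78.7 CPM, L5 ET-like cells 134 ± 19.0 CPM, L6 IT-like cells 120 ± 29.9 CPM and L2/3 IT-like cells 78.2 ± 20.5 CPM (SD, n = 7 libraries each). The L5 ET-like class held only 9 cells in MC DTA and 12 in MC CTRL. L5 NP-like cells averaged 27.5 ± 17.2 CPM and L6 CT-like cells 16.7 ± 9.63 CPM, in the range of the glial classes. Neighbours in this order overlapped over the libraries, and L6 CT-like cells, at 9.02 to 36.2 CPM, lay below the L2/3 IT-like range of 42.4 to 110 CPM. Excitatory neurons as a whole carried 48.2% of the Cnr1 UMIs and inhibitory neurons 47.9%, although they held 63.5% and 9.87% of all UMIs.

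Cnr1 counts in microglia were low and differed between libraries. In microglia-like cells they were 2.76 CPM in MC DTA, 8.44 CPM in MC CTRL, 19.4, 6.33 and 13.6 CPM in PFC DTA, and 2.97 and 31.6 CPM in PFC CTRL. The summed level of 7 neuronal transcripts (Snap25, Slc17a7, Syt1, Rbfox3, Gad1, Gad2 and Stmn2) in the same cells was 502 CPM in MC DTA, 1736 CPM in MC CTRL, 603, 509 and 1306 CPM in PFC DTA, and 270 and 1578 CPM in PFC CTRL. PFC CTRL replicate 2 was highest for Cnr1 and second highest for the neuronal transcripts, and the part of these transcripts in glial Cnr1 was not tested.

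Dagla was highest in L6 CT-like cells, and excitatory neurons carried 84.1% of its UMIs (range 81.0% to 86.9%). L6 CT-like cells averaged 43.8 ± 13.9 CPM, L6 IT-like cells 39.0 ± 12.8 CPM, L4/5 IT-like cells 36.2 ± 10.3 CPM and L2/3 IT-like cells 29.2 ± 12.1 CPM (SD, n = 7 libraries each), and the ranges of these classes overlapped. Pvalb-like interneurons, at 31.7 ± 17.1 CPM (SD, n = 7 libraries), lay among them. L6 CT-like neurons were thus among the highest classes for Dagla and among the lowest neuronal classes for Cnr1. Their Dagla was uneven, at 61.5 CPM in a sub-cluster led by Foxp2 and Syt6 and 26.2 CPM in one led by Rprm and Nts (7 libraries each). The Foxp2 and Syt6 sub-cluster held 30.4% of the class in PFC DTA replicate 3 and 84.1% in MC CTRL. Sncg/Cck-like cells, the highest class for Cnr1, gave 4.41 CPM of Dagla in MC DTA, 15.9 CPM in MC CTRL, 0, 0 and 3.70 CPM in PFC DTA, and 0 and 10.3 CPM in PFC CTRL. A count of 0 allows up to 164 CPM in this class in PFC DTA replicate 1, 16.3 CPM in PFC DTA replicate 2 and 18.6 CPM in PFC CTRL replicate 1 (3 counts each). In L6 CT-like cells thinned to 1500 UMIs, 6.21% had a Dagla UMI (31.9% unthinned), against 0.610% of microglia-like cells (0.918% unthinned).

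Daglb, the other diacylglycerol lipase, was highest in microglia-like cells. It measured 277 CPM in MC DTA, 235 CPM in MC CTRL, 331, 249 and 249 CPM in PFC DTA, and 303 and 218 CPM in PFC CTRL, with a mean of 266 ± 39.8 CPM (SD, n = 7 libraries). The next class, perivascular macrophage-like cells, was 2.85-fold lower in the ratio of means and its range did not overlap, although 20 or more of these cells were found in only 3 libraries. Microglia-like cells held 2.70% of all UMIs and 17.5% of the Daglb UMIs. After thinning, 31.2% of microglia-like cells had a Daglb UMI (38.8% unthinned), against 2.07% of endothelial-like cells (3.17% unthinned). Neurons also carried it: excitatory neurons averaged 39.7 ± 4.41 CPM and inhibitory neurons 24.9 ± 3.98 CPM (SD, n = 7 libraries each). Most Daglb UMIs, 61.2% (range 57.2% to 65.9%), were in excitatory neurons, which held 63.5% of all UMIs. Dagla in microglia-like cells was 4.14 CPM in MC DTA, 5.07 CPM in MC CTRL, 0, 8.44 and 1.95 CPM in PFC DTA, and 2.97 and 5.05 CPM in PFC CTRL, so the 2 lipases had different leading classes.

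Napepld was sparse. Its highest class mean was 14.1 ± 4.26 CPM in L2/3 IT-like cells, followed by endothelial-like cells at 13.2 ± 2.91 CPM (SD, n = 7 libraries each), and the ranges overlapped. L2/3 IT-like neurons carried 29.2% of the Napepld UMIs and held 18.0% of all UMIs. Astrocyte-like cells averaged 1.61 ± 1.22 CPM. The ranges of neighbouring classes overlapped throughout, and no Napepld count was found in pericyte-like or smooth muscle-like cells.

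Mgll was highest in astrocyte-like cells, with 880 CPM in MC DTA, 682 CPM in MC CTRL, 732, 1139 and 617 CPM in PFC DTA, and 1007 and 999 CPM in PFC CTRL. The mean of 865 ± 194 CPM (SD, n = 7 libraries) was 2.61-fold that of Lamp5-like interneurons, the next class, and the ranges did not overlap. Astrocyte-like cells held 5.33% of all UMIs and 33.1% of the Mgll UMIs, and 66.0% of them had a Mgll UMI after thinning (67.4% unthinned), against 11.1% of endothelial-like cells (18.9% unthinned). Excitatory neurons carried 36.7% and inhibitory neurons 11.1% of the Mgll UMIs, and they held 63.5% and 9.87% of all UMIs. Lamp5-like cells averaged 331 ± 52.0 CPM and newly formed oligodendrocyte-like cells 273 ± 44.4 CPM. In the excitatory classes Mgll ran from 119 ± 32.3 CPM in L4/5 IT-like cells to 24.6 ± 19.0 CPM in L5 ET-like cells (SD, n = 7 libraries each). L5 NP-like cells lay close to the latter, at 25.1 CPM, and the L5 ET-like class held only 9 cells in MC DTA and 12 in MC CTRL.

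By level in CPM, Faah had the opposite order between excitatory neurons and astrocytes. Excitatory neurons carried 83.7% of its UMIs, and their levels were close to each other, from 99.3 ± 4.97 CPM in L2/3 IT-like cells to 63.6 ± 17.1 CPM in L6 CT-like cells. Interneuron classes averaged 34.6 ± 10.8 CPM in Pvalb-like cells to 50.8 ± 11.0 CPM in Lamp5-like cells, and oligodendrocyte-like cells averaged 39.9 ± 10.2 CPM (SD, n = 7 libraries each). Astrocyte-like cells had 5.64 CPM in MC DTA, 14.9 CPM in MC CTRL, 2.51, 4.77 and 5.83 CPM in PFC DTA, and 3.06 and 7.09 CPM in PFC CTRL. The enzyme that degrades 2-arachidonoylglycerol was highest in a class where the one that degrades anandamide was near its lowest.

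**Figure D2:**
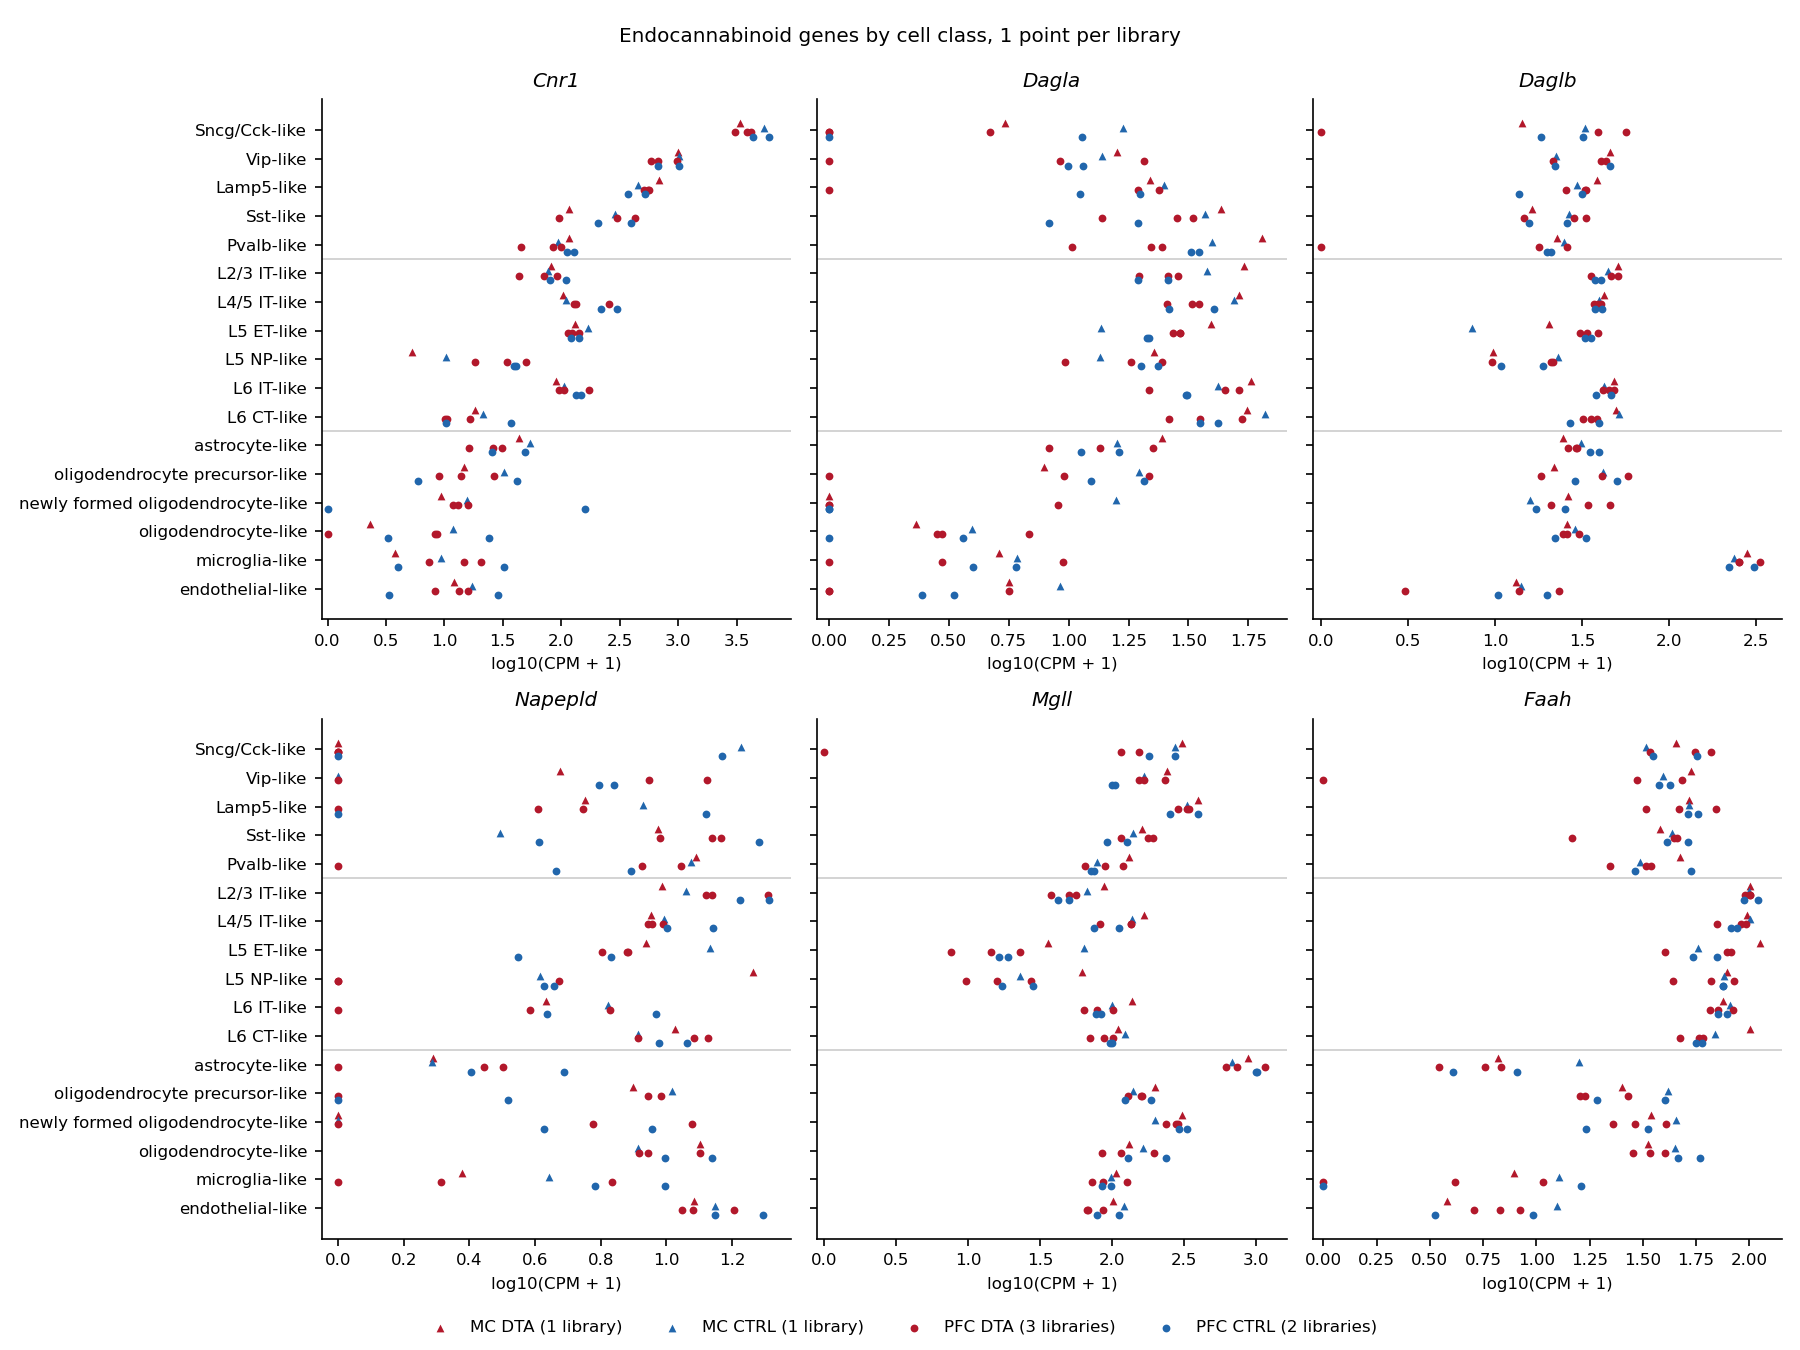
Levels of the 6 genes as log10(CPM + 1) in 17 cell classes, with 1 point per library (MC DTA, MC CTRL, PFC DTA and PFC CTRL) and grey lines between interneurons, excitatory neurons and non-neuronal cells. Cnr1 is highest in Sncg/Cck-like, Daglb in microglia-like and Mgll in astrocyte-like cells in all 7 libraries, while Faah is highest in excitatory neurons.

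Across 21 classes the genes with the most similar profile were looked up among 11482 genes, by Pearson's r of mean log2(CPM + 1) over the 5 PFC libraries. For Cnr1 they were Vstm2l (r = 0.928), Grip1 (0.907) and Adra1b (0.903). For Dagla they were Ephb6 (0.949), Drp2 (0.946) and Lzts3 (0.934), and for Faah they were Atp9a (0.955), Kcnq3 (0.945) and Retreg2 (0.942). For Daglb they were H2-DMa (0.843), Dennd4a (0.814) and Psap (0.803), all 3 highest in microglia-like cells. For Mgll they were Fam208a (0.839), Tbcel (0.799) and Gcdh (0.797), and for Napepld they were Spns2 (0.840), Ints7 (0.782) and Zbtb45 (0.779). The classes come from the same libraries, and these values are descriptions.

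The first comparison asked whether loss of the ipRGCs with an active Brn3b locus went with a change of these genes in prefrontal cortex. No member passed an adjusted p of 0.05 in edgeR's quasi-likelihood test in any of 17 classes (0 of 69 tests of a gene in a class), and DESeq2 called none either. Over all genes and these classes 0.00207% of tests were called. At an unadjusted p under 0.05 there were 3 of the 69 tests, beside 3.03% of all tests. Leaving out PFC CTRL replicate 1 gave 2 calls, both Cnr1 in oligodendrocyte lineage classes, leaving out PFC CTRL replicate 2 gave 1, Mgll in oligodendrocyte-like cells, and leaving out PFC DTA replicate 2 gave 1, Cnr1 in L4/5 IT-like neurons. Over all genes 0.205%, 0.0897% and 0.0733% of tests were called in these 3 fits. Without either PFC CTRL library the CTRL group is 1 library, which is assumed to vary like the DTA libraries, so these calls have no replicate check in CTRL. Cnr1 in newly formed oligodendrocyte-like cells rested on 49 counts in PFC CTRL replicate 2, of which 1 cell held 41. Without a call, the log2 fold changes of Cnr1 were below 0 in 11 of 12 classes, from -0.78 to 0.25, and these classes share libraries and, for the neurons as wholes, cells. Other genes of the pathway also ran to one side: Homer1 was below 0 in 16 of 16 classes, Grm5 in 15 of 15, and Fabp7 above 0 in 9 of 9. Gna11 was split, above 0 in 8 and below 0 in 9 of 17. Such runs were not counted over all genes. The 17 classes include excitatory and inhibitory neurons as wholes, which contain the subtypes.

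The 3 were Cnr1 in Pvalb-like cells, Mgll in Vip-like cells and Faah in oligodendrocyte-like cells. Cnr1 in Pvalb-like cells was 84.4, 98.8 and 44.6 CPM in PFC DTA, against 111 and 129 CPM in PFC CTRL, with a log2 fold change of -0.62 ± 0.26 (SE) and an edgeR adjusted p of 0.647. Mgll in Vip-like cells was 232, 165 and 152 CPM in PFC DTA, against 99.2 and 104 CPM in PFC CTRL, with a log2 fold change of 0.74 ± 0.32 (SE) and an edgeR adjusted p of 0.9995. Faah in oligodendrocyte-like cells was 39.0, 27.6 and 33.1 CPM in PFC DTA, against 58.0 and 45.1 CPM in PFC CTRL, with a log2 fold change of -0.57 ± 0.26 (SE) and an edgeR adjusted p of 0.999. In all 3 the genotypes did not overlap, which held for 10 of the 69 tests, beside 17% of all tests. These differences did not stand out from the spread between libraries once all genes were taken into account.

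In the classes where the members were highest, the intervals set what the data allow. Dagla and Faah, which were highest in L6 CT-like and L2/3 IT-like cells, are given here for excitatory neurons as a whole. Mgll in astrocyte-like cells averaged 829 ± 274 CPM in PFC DTA and 1003 ± 6.09 CPM in PFC CTRL (SD, n = 3 and 2), a log2 fold change of -0.20 with a 95% interval of -0.79 to 0.39. Daglb in microglia-like cells averaged 276 ± 47.1 CPM in PFC DTA and 261 ± 59.8 CPM in PFC CTRL, a log2 fold change of 0.18 with an interval of -0.50 to 0.86. Dagla in excitatory neurons averaged 28.3 ± 5.80 CPM in PFC DTA and 28.5 ± 3.24 CPM in PFC CTRL, a log2 fold change of 0.05 with an interval of -0.37 to 0.47. Faah in excitatory neurons averaged 84.6 ± 10.7 CPM in PFC DTA and 83.1 ± 10.4 CPM in PFC CTRL, a log2 fold change of 0.07 with an interval of -0.27 to 0.42. Napepld in L2/3 IT-like cells averaged 14.8 ± 4.01 CPM in PFC DTA and 17.7 ± 2.73 CPM in PFC CTRL, a log2 fold change of -0.12 with an interval of -0.71 to 0.47.

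Sncg/Cck-like cells were too few for the fit, with 4, 21 and 29 cells in PFC DTA and 11 and 65 in PFC CTRL. Their Cnr1 averaged 3715 ± 599 CPM in PFC DTA and 5184 ± 1140 CPM in PFC CTRL (SD, n = 3 and 2), and all 3 DTA libraries lay below both CTRL libraries. The log2 ratio of the means was -0.48, and the two-sided exact permutation test gave p = 0.1, the smallest that 3 against 2 libraries allow. Without PFC DTA replicate 1 and its 4 cells, a setting added after the data had been seen, the log2 ratio was -0.58. The exact permutation test then gave p = 0.3333, the smallest that 2 against 2 libraries allow. Of 3668 genes with at least 50 counts in this class, 10.3% were likewise lower in every DTA library. In inhibitory neurons as a whole Cnr1 was 542, 565 and 634 CPM in PFC DTA, against 702 and 873 CPM in PFC CTRL, with a log2 fold change of -0.39 ± 0.20 (SE) and an edgeR adjusted p of 0.9999. With the Sncg/Cck-like cells taken out it was 330, 318 and 232 CPM in PFC DTA, against 254 and 397 CPM in PFC CTRL, and the genotypes overlapped.

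In motor cortex each genotype had 1 library, so ratios carry an exact 95% counting interval and no test. Of 18 ratios per gene, the interval lay above 0 in 2 for Cnr1, 3 for Dagla, 8 for Mgll and 1 for Faah, and below 0 in 3 for Cnr1 and 1 for Mgll. The same count was not made over all genes, and the intervals leave out the spread between libraries. These counts are therefore no result about the members. Cnr1 in inhibitory neurons was 579 CPM in MC DTA, against 780 CPM in MC CTRL, a log2 ratio of -0.43 (interval -0.52 to -0.33). In excitatory neurons it was 85.4 CPM in MC DTA and 73.6 CPM in MC CTRL (log2 ratio 0.21, interval 0.09 to 0.34). It was lower in Sst-like cells, at 115 CPM in MC DTA and 288 CPM in MC CTRL (log2 ratio -1.33, interval -1.77 to -0.90), and higher in Lamp5-like cells, at 679 CPM in MC DTA and 449 CPM in MC CTRL (log2 ratio 0.60, interval 0.36 to 0.83). The make-up of both classes differed too: the Myh8 and Chrna2 sub-cluster held 40.0% of Sst-like cells in MC DTA and 55.3% in MC CTRL, and the Ndnf and Cxcl14 sub-cluster held 20.4% of Lamp5-like cells in MC DTA and 12.3% in MC CTRL. Within the Pdyn and Crhbp sub-cluster of Sst-like cells Cnr1 was 50.1 CPM in MC DTA and 181 CPM in MC CTRL. In the largest Lamp5-like sub-cluster, led by Sv2c and Tnnt1, it was 296 CPM in MC DTA and 316 CPM in MC CTRL. The Myh8 and Chrna2 sub-cluster held 18 cells in MC DTA and the Ndnf and Cxcl14 one 10, so Cnr1 was not compared within them. The part of make-up in the class differences was not tested. Mgll in astrocyte-like cells was 880 CPM in MC DTA and 682 CPM in MC CTRL (log2 ratio 0.37, interval 0.23 to 0.51), and Mgll in excitatory neurons was 124 CPM in MC DTA and 99.2 CPM in MC CTRL (log2 ratio 0.32, interval 0.22 to 0.43). In oligodendrocyte-like cells Mgll was lower, at 129 CPM in MC DTA and 163 CPM in MC CTRL (log2 ratio -0.34, interval -0.58 to -0.10). Daglb in microglia-like cells was 277 CPM in MC DTA and 235 CPM in MC CTRL (log2 ratio 0.24, interval -0.08 to 0.56). MC DTA was also the deeper library, and depth and genotype cannot be told apart here.

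Whether the genotype effect differed between motor and prefrontal cortex was tested as an interaction over all 7 libraries, an analysis added after the data had been seen. None of 76 tests of a member in a class was called by edgeR, with a smallest adjusted p of 0.999, and 2 had an unadjusted p under 0.05. Over all genes 0.000636% of tests were called and 1.62% had an unadjusted p under 0.05. The 2 were Dagla in Pvalb-like cells, with an interaction of 1.5 on the log2 scale, and Cnr1 in the same cells, with 0.94.

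The second comparison set motor cortex against prefrontal cortex, with genotype as a term in the fit. The log2 fold changes of Dagla were above 0 in all 8 classes in which it could be tested, from 0.45 to 0.98, and it passed as higher in motor cortex in 4 of them: L2/3 IT-like, L4/5 IT-like, excitatory and inhibitory neurons. Mgll passed in L2/3 IT-like and excitatory neurons, also higher in motor cortex. No call was made for Cnr1, Daglb, Faah or Napepld, so that 6 of 69 tests were called, beside 2.54% of all tests (1.3% called as higher). The 16 classes here also include excitatory and inhibitory neurons as wholes. The calls in excitatory neurons therefore share cells with those in L2/3 IT-like and L4/5 IT-like neurons and are not separate results. The share of genes called was 8.81% in L2/3 IT-like, 4.82% in L4/5 IT-like, 5.31% in excitatory and 2.2% in inhibitory neurons. At an unadjusted p under 0.05 there were 20 of 69, beside 11.6% of all tests, and the areas did not overlap in 18, beside 15.8% of all tests. DESeq2 called 5, of which 4 were among the 6. Over all genes DESeq2 called 943 of 12169 in L2/3 IT-like neurons and 553 of 12112 in L4/5 IT-like neurons. It called 979 of 14179 in excitatory and 168 of 11654 in inhibitory neurons.

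In L2/3 IT-like neurons Dagla was 52.9 and 36.8 CPM in the MC DTA and MC CTRL libraries, against 18.7, 27.7 and 24.9 CPM in PFC DTA and 18.4 and 25.1 CPM in PFC CTRL. Both motor libraries were above all 5 prefrontal libraries, as they were for 14.1% of genes in this class. The log2 fold change was 0.92 ± 0.16 (SE) with an edgeR adjusted p of 0.00329. Mgll in the same neurons was 87.1 and 66.0 CPM in MC, against 55.2, 36.5 and 48.8 CPM in PFC DTA and 49.0 and 41.2 CPM in PFC CTRL, again without overlap. Its log2 fold change was 0.78 ± 0.17 (SE) with an edgeR adjusted p of 0.0105. In L4/5 IT-like neurons Dagla was 50.5 and 48.2 CPM in MC, against 24.8 to 39.3 CPM in PFC, with a log2 fold change of 0.72 ± 0.18 (SE) and an edgeR adjusted p of 0.0374. In inhibitory neurons Dagla was 40.6 and 31.1 CPM in MC, against 10.0 to 24.6 CPM in PFC, with a log2 fold change of 0.95 ± 0.24 (SE) and an edgeR adjusted p of 0.0403. Over all excitatory neurons Dagla had a log2 fold change of 0.77 ± 0.15 (SE, edgeR adjusted p = 0.0129) and Mgll one of 0.67 ± 0.16 (SE, edgeR adjusted p = 0.0299). Excitatory neurons as a whole differed in make-up: L5 ET-like cells were 9 of 730 in MC DTA and 12 of 2631 in MC CTRL. In PFC they were 47 of 1070, 153 of 1634 and 31 of 1636 in DTA, and 44 of 744 and 283 of 4409 in CTRL. Their part in these differences was not tested.

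For L2/3 IT-like cells the areas were also set side by side within each depth. Each depth holds 1 MC library, MC DTA among the deep and MC CTRL among the shallow. These ratios therefore also carry genotype, and they were not tested. Among the deep libraries Dagla in L2/3 IT-like cells was 52.9 CPM in MC and 23.1 CPM in PFC on average (log2 ratio 1.20), and among the shallow ones it was 36.8 CPM in MC and 22.9 CPM in PFC (log2 ratio 0.69). For Mgll in these cells the log2 ratio was 1.03 among the deep and 0.45 among the shallow libraries. In the L2/3 IT-like sub-cluster led by Stard8 and Myh7, Dagla was 59.8 and 42.3 CPM in MC, against 11.0 to 28.3 CPM in PFC, while Mgll was 84.85 and 62.5 CPM in MC and 34.5 to 63.8 CPM in PFC, where the areas overlapped. In the one led by Matn2 and Evc2, Dagla was 54.7 and 41.6 CPM in MC, against 16.3 to 35.2 CPM in PFC, and Mgll was 68.3 and 47.9 CPM in MC and 26.9 to 60.4 CPM in PFC, again with overlap. In the one led by Calb1 and Gsta4, Dagla was 35.3 and 21.7 CPM in MC and 11.7 to 24.3 CPM in PFC, where the areas overlapped, while Mgll was 94.1 and 73.4 CPM in MC, against 33.8 to 57.2 CPM in PFC. The make-up of the class differed too: the Stard8 and Myh7 sub-cluster held 40.2% and 52.8% of it in MC and 14.4% to 42.7% in PFC, and the Calb1 and Gsta4 sub-cluster 19.2% and 16.2% in MC and 15.8% to 31.0% in PFC. Leaving out MC DTA took the count of called tests to 0, beside 0.393% of all tests, and leaving out MC CTRL took it to 2, beside 0.424%. The 6 log2 fold changes then ran from 0.557 to 0.735 without MC DTA and from 0.762 to 1.201 without MC CTRL, with 1 motor library that is assumed to vary like the others. Leaving out PFC DTA replicate 1 gave 3 calls, beside 2.23% of all tests. With clusters cut at the finer resolution of 2.0, the L2/3 IT-like calls were lost, at an edgeR adjusted p of 0.273 for Dagla (log2 fold change 0.77) and 0.212 for Mgll (log2 fold change 0.75). DESeq2 gave an adjusted p of 0.0656 for Dagla in L4/5 IT-like and 0.149 in inhibitory neurons. The summed level of 5 astrocyte transcripts in L2/3 IT-like cells was 483 and 530 CPM in MC, against 281 to 423 CPM in PFC, with 0 or 1 of the 5 at 0, and its part in the Mgll difference was not tested. Dagla in Pvalb-like cells had a log2 fold change of 0.98 with an edgeR adjusted p of 0.0502, and the class differed in make-up, since a sub-cluster led by Th and Nr4a2 held 9.09% and 6.88% of it in MC and 21.8% to 52.2% in PFC.

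Cnr1 ran the other way in some excitatory classes without passing the main test. In L4/5 IT-like neurons it was 103 and 108 CPM in MC, against 129, 253 and 133 CPM in PFC DTA and 216 and 301 CPM in PFC CTRL. The areas did not overlap, and the log2 fold change was -0.96 ± 0.30 (SE) with an adjusted p of 0.15 in edgeR and 0.00398 in DESeq2. Both motor libraries were below all prefrontal ones for 10.7% of genes in this class, and without PFC DTA replicate 2 the edgeR adjusted p was 0.0429. In the largest sub-cluster of this class, led by Rorb and Slc24a3, Cnr1 was 124 and 123 CPM in MC and 111 to 290.1 CPM in PFC, where PFC DTA replicate 3 lay below both motor libraries. A sub-cluster led by Cartpt and Ddit4l, with 41.7 CPM of Cnr1 on average over 5 libraries, held 18.2% and 11.7% of the class in MC, against 1.26% to 3.43% in 4 PFC libraries and 14.3% in PFC DTA replicate 3, and its part in the difference was not tested. In L5 NP-like neurons it was 4.33 and 9.38 CPM in MC, from 1 and 3 counts, against 17.2 to 49.2 CPM in PFC, with a log2 fold change of -2.35 ± 0.62 (SE) and an adjusted p of 0.106 in edgeR and 0.774 in DESeq2. Napepld in L2/3 IT-like neurons was 8.71 and 10.4 CPM in MC, against 12.2 to 19.6 CPM in PFC, with a log2 fold change of -0.76 ± 0.24 (SE) and an edgeR adjusted p of 0.0689. In interneurons the Cnr1 areas overlapped, with a log2 fold change of -0.01 in inhibitory neurons (95% interval -0.34 to 0.32).

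The leading glial levels gave no call between the areas. Mgll in astrocyte-like cells averaged 781 ± 140 CPM in MC and 899 ± 216 CPM in PFC (SD, n = 2 and 5), with a log2 fold change of -0.20 and a 95% interval of -0.71 to 0.32. Daglb in microglia-like cells averaged 256 ± 30.2 CPM in MC and 270 ± 45.5 CPM in PFC, with a log2 fold change of -0.06 and an interval of -0.62 to 0.50. Faah in excitatory neurons averaged 95.4 ± 4.14 CPM in MC and 84.0 ± 9.20 CPM in PFC, with a log2 fold change of 0.20 and an interval of -0.08 to 0.47.

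**Figure D3:**
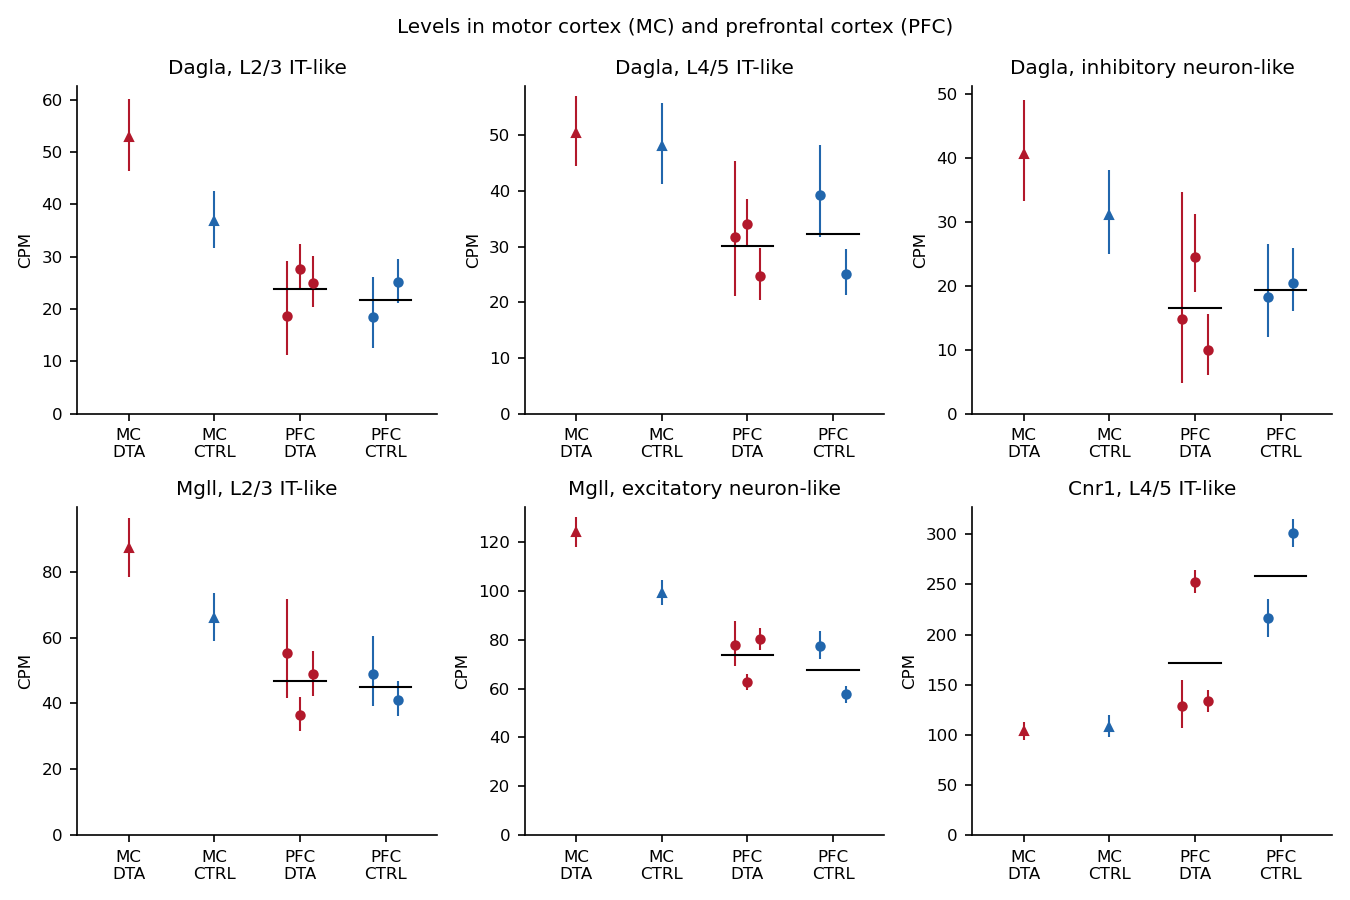
Levels (CPM, linear axes from 0) of Dagla, Mgll and Cnr1 in classes of the area comparison, with 1 point per library, its exact 95% counting interval and black lines at the PFC group means. Dagla and Mgll are higher in both MC libraries than in all 5 PFC libraries in L2/3 IT-like neurons, and Cnr1 is lower in both MC libraries than in all 5 PFC libraries in L4/5 IT-like neurons.

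**Figure D4:**
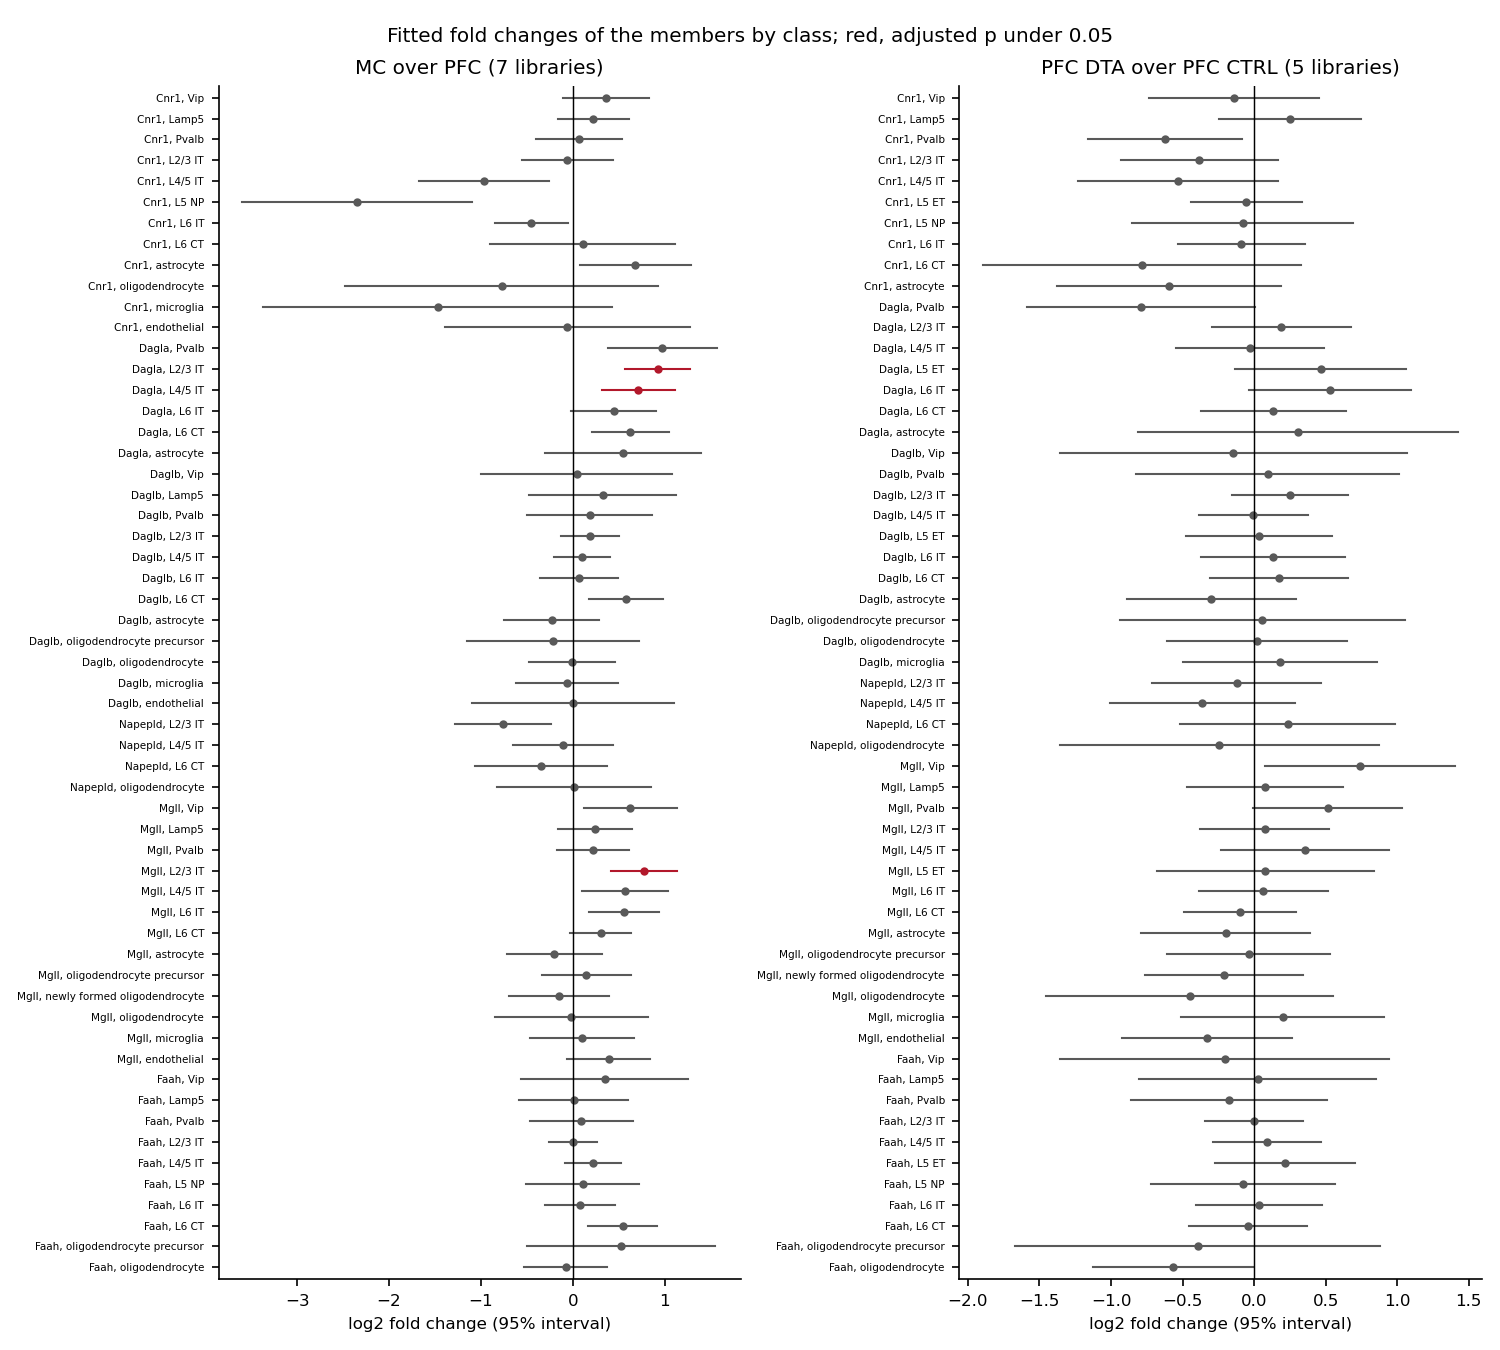
Fitted log2 fold changes with 95% intervals for each member in each subtype or glial class tested, MC over PFC on the left and PFC DTA over PFC CTRL on the right. Red marks an adjusted p under 0.05, which is reached by Dagla in L2/3 IT-like and L4/5 IT-like neurons and Mgll in L2/3 IT-like neurons on the left, and by none on the right.

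The wider pathway was read from a list of 34 genes, all of them in the tables. Between the PFC genotypes 0 of 396 tests were called, beside 0.00207% of all tests, and 12 had an unadjusted p under 0.05, beside 3.03%. Between the areas 24 of 395 tests were called by edgeR, 15 higher and 9 lower in motor cortex, beside 2.54% of all tests. In L2/3 IT-like neurons 5 of 30 list genes were higher and 3 lower in motor cortex, with a median log2 fold change of 0.04 over the list and -0.01 over all genes tested, beside 8.81% of all genes called in this class.

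Among the genes that act before Dagla, the phospholipases Plcb1 and Plcb4, which release diacylglycerol, were higher in motor L2/3 IT-like neurons. Plcb1 averaged 299 ± 30.9 CPM in MC and 166 ± 21.2 CPM in PFC (log2 fold change 0.87, edgeR adjusted p = 0.00236), and Plcb4 averaged 97.3 ± 4.73 CPM in MC and 35.7 ± 8.79 CPM in PFC (log2 fold change 1.53, edgeR adjusted p = 0.0011). Grm5, a glutamate receptor that acts upstream of phospholipase C, was lower in motor L6 CT-like neurons, at 68.7 ± 29.0 CPM in MC and 126 ± 27.4 CPM in PFC (edgeR adjusted p = 0.00962).

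Of the receptor partners, Cnrip1, which encodes a protein that binds the CB1 receptor's tail, was lower in motor cortex in L2/3 IT-like, L6 CT-like and excitatory neurons. In L2/3 IT-like cells it averaged 186 ± 7.70 CPM in MC and 311 ± 29.3 CPM in PFC (log2 fold change -0.76, edgeR adjusted p = 0.00341). Of the channels that the receptor's G proteins act on, Cacna1a was higher in 5 classes and Kcnj3 in 4. In L2/3 IT-like cells Cacna1a averaged 116 ± 3.40 CPM in MC and 74.99 ± 9.03 CPM in PFC, and Kcnj3 averaged 174 ± 1.34 CPM in MC and 111 ± 7.74 CPM in PFC (edgeR adjusted p = 0.012 and 0.00533).

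Of the breakdown enzymes and carriers, Ptgs2, an activity-regulated cyclooxygenase that also oxidises endocannabinoids, was lower in motor L6 IT-like neurons, at 30.8 ± 1.78 CPM in MC and 59.5 ± 10.2 CPM in PFC (edgeR adjusted p = 0.018). Fabp7, a fatty acid binding protein of astrocytes, was lower in motor astrocyte-like cells, at 498 ± 112 CPM in MC and 1228 ± 129 CPM in PFC (log2 fold change -1.29, edgeR adjusted p = 0.0143), and Fabp5, another such protein, was lower in Pvalb-like cells, at 69.9 ± 10.47 CPM in MC and 111 ± 15.6 CPM in PFC (edgeR adjusted p = 0.0368). The other 3 list genes called in L2/3 IT-like neurons, named after their values were seen, were Gnaq, which was higher in motor cortex, and Ptgs2 and Fabp5, which were lower. The summed level of 7 immediate early genes, which mark recent activity or handling of the cells, was 539 and 540 CPM in MC L2/3 IT-like cells, against 1403, 1252 and 1704 CPM in PFC DTA and 2310 and 838 CPM in PFC CTRL. Their part in the area differences was not tested.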

How the data were processed

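The authors deposited raw counts of UMIs per gene and cell, 1 table per library, from 10x Genomics 3' libraries, per the labels' protocols. Cell Ranger 3.0.2, Seurat and mm10 are named in the submitters' processing notes. The deposited cells had at least 501 genes and under 10% mitochondrial counts, so no further filter was applied. Scrublet doublets (23 to 418 per library) were removed; in PFC DTA replicate 3 the automatic cut-off found 0, and the 295 top-scoring cells were taken at the expected rate.

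Cells of all 7 libraries were clustered together (scanpy 1.11.5; 2000 variable genes without the members; 30 components; leidenalg 0.10.2, resolution 1.0) and named by at least 3 markers at 20 CPM and 2-fold above cells of other classes. The limits of 0.45 for a second class, 0.85 for its ratio to the best and 0.3 for the marker level were set after seeing the clusters. They left 2.14% to 6.61% of cells unnamed in 6 libraries and 39.3% in PFC DTA replicate 3, with a further 3.92% to 14.9% named as excitatory and 0.836% to 1.88% as inhibitory without a subtype.

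Counts were summed per library and class, with at least 20 cells in every library used. The main test was the robust quasi-likelihood test of edgeR 4.0.16, with TMM factors and a filterByExpr minimum of 10 counts, adjusted by Benjamini-Hochberg over all genes of a class at 0.05. The PFC fit had 3 residual degrees of freedom and the area fit (genotype plus area) 4, and DESeq2 1.42.0 was an alternative. The fits were tested on simulated counts. Intervals cover counting error only where called counting intervals. The members and lists were chosen with earlier results of these data known. All 6 members are described in every class, list genes are named when called, at most 5 per comparison and class by p, and similar genes are the 3 with the highest r at 20 CPM or more in a class. The alternatives were other size factors, no filter, DESeq2, doublets kept, resolution 2.0, members among the variable genes, each library left out, a depth term and a replicate block.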

Additional observations from a re-analysis of the deposited data

How the results depend on the processing

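Of the PFC genotype tests on members, 0 were called in the main fit, and the same count came from DESeq2, other size factors, a depth term, doublets kept, resolution 2.0 and members among the variable genes. With no filter on low counts it was 1, and with the replicate block 1, both Cnr1 in newly formed oligodendrocyte-like cells, which was listed at 158 CPM in PFC CTRL replicate 2 and at 0 to 14.9 CPM in the other PFC libraries, with 41 of its 49 counts there in 1 cell. For either fit the share of all tests called was not worked out, so these calls are no result about the members. Same-numbered PFC libraries correlated at 0.158 and 0.059 in their deviations, and with 2 pairs the numbers were not taken to pair them. Leaving out each library in turn gave 0 to 2 (2 without PFC CTRL replicate 1, 1 without PFC CTRL replicate 2, 1 without PFC DTA replicate 2). The area count of 6 became 11 with no filter and 3 at resolution 2.0, and ranged from 0 to 9 when each library was left out (0 without MC DTA, 2 without MC CTRL, 3 without PFC DTA replicate 1); the cause was not tested, though leaving out a library also leaves fewer samples. With a PFC library left out, the share of all area tests called was 1.88% to 3.23%. That share was not worked out with no filter or at resolution 2.0. Some small fold changes (log2) turned sign. For the PFC genotypes these were Faah in excitatory neurons (-0.002) and Napepld in L2/3 IT-like cells (0.078) with the replicate block. With each library left out in turn, Napepld in L2/3 IT-like cells ran from -0.424 to 0.051, Dagla in excitatory neurons from -0.113 to 0.223 and Daglb in microglia-like cells from -0.091 to 0.61. For the areas, Daglb in microglia-like cells was 0.097 with doublets kept and ran from -0.173 to 0.111 with each library left out, and Mgll in astrocyte-like cells ran from -0.521 to 0.079. The Cnr1 fold in L4/5 IT-like cells between areas was past the threshold with no filter, with DESeq2 and without PFC DTA replicate 2. Sparse genes such as Napepld, and Cnr1 in glia, are limited by depth.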
